A study of Homo sapiens with 24 samples.

Results

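The 1095 regions described here lost accessibility in both of 2 human diffuse large B-cell lymphoma (DLBCL) cell lines, VAL and OCI-LY3, after 8 h with the CDK9 inhibitor AZD4573. They were selected on the readout itself. A region was taken when the same chromosome, start and end stood in the list of regions decreased at 8 h in VAL and in the list decreased at 8 h in OCI-LY3, and it was then noted whether it also stood in the lists decreased at 3 h. The 8 lists of the study held 26369 distinct regions, of which 35.1% were listed as decreased at 8 h in VAL and 13.1% in OCI-LY3. The shared regions made up 11.8% of the 9260 regions decreased in VAL and 31.6% of the 3463 decreased in OCI-LY3. A further 34 regions were decreased in VAL and increased in OCI-LY3, and 71 the other way round. Below, a region is called closed where the authors listed it as decreased and opened where they listed it as increased.

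Both lines were exposed to 30 nM AZD4573 and compared with the 0 h samples of the same line at 3 h and at 8 h. The authors' names for the lists call this control DMSO, and the sample labels give no control at 3 h or 8 h. ATAC-seq, in which a transposase cuts and tags DNA that is accessible in chromatin, was run on 24 libraries, 4 for each of 6 conditions, of which 2 were labelled standard (50000 cells) and 2 Fast-ATAC (5000 cells). Each line is a single culture model of the disease, and the 4 libraries of a condition vary within that line only. The lists hold coordinates with no count, fold change or p-value, so neither depth nor the error between libraries can be given, the 2 library methods cannot be told apart, and values just inside and outside the calling threshold cannot be given. Lists of changed regions also do not show whether B-cell marker loci were accessible in these cells, so the labelled cell type was not checked. A region closed in 1 line only is one not listed as decreased in the other, which does not show that it stayed the same there.

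CDK9 is the kinase of the positive elongation factor P-TEFb. It releases RNA polymerase II from its pause near the promoter and keeps it competent along the gene, and inhibitors of CDK9 reduce transcription at many genes. Accessible chromatin marks promoters, enhancers and sites bound by factors such as CTCF, which anchors chromatin loops. In B cells, enhancers are often bound by PU.1 and SpiB (ETS family factors), by IRF4 and IRF8 (interferon regulatory factors, which bind alone or on composite sites with PU.1 or AP-1), by OCT2 and by RUNX factors. Transcription itself opens chromatin along active genes, and polymerase continues for some kilobases past the polyadenylation site before it is released.

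Representative stretches with matches to such motifs are printed first, since 3 of the motif comparisons below separated the shared regions from those closed in VAL only. Each is 100 bases of the GRCh37 (hg19) plus strand, in lower case, with the match in capitals. Where the match lies on the minus strand the capitals show its reverse complement. The first IRF stretch lies in an intron of MTHFD2L, a mitochondrial folate enzyme gene, and the second in an intron of RPL39L, a ribosomal protein paralogue, and both regions were also closed at 3 h in both lines. The last 2 lie in intergenic DNA, nearest SC5D and ZWINT, and were closed at 8 h only.
IRF, chr4:75072357-75072456, minus: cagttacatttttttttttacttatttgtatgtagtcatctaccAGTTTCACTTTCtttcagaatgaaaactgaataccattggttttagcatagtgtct
IRF, chr3:186848551-186848650, plus: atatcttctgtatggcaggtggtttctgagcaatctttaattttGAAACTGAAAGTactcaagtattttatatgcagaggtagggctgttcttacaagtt
IRF, chr11:121238329-121238428, minus: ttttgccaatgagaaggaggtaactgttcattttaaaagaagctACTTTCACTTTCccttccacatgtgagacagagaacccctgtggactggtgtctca
IRF, chr10:58382246-58382345, minus: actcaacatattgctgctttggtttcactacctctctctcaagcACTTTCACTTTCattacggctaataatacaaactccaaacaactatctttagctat

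A second set shows AP-1 and CTCF matches and a place where an ETS and an ETS-IRF match overlap. The first AP-1 stretch is intergenic, nearest RBM26, from a region closed at 3 h in both lines, and the second is in an intron of DTHD1, from a region closed at 8 h only. The first CTCF match has 1 mismatch to the consensus, lies in intronic DNA near MBNL1 (a splicing regulator) and was closed at 3 h in both lines, and the second has 0 mismatches, lies in intronic DNA of the X chromosome near ARHGAP6 and was closed at 8 h only. The last pair covers nearly the same bases of 1 region on chromosome 6, far from any coding start, in which the SpiB match and the composite ETS-IRF element (EICE) share letters. In it the SpiB match has 1 mismatch to its consensus and the EICE match has 0. That region was closed at 3 h in both lines.
AP-1, chr13:79881761-79881860, minus: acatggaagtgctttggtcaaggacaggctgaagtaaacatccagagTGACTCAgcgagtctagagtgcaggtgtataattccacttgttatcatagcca
AP-1, chr4:36287863-36287962, plus: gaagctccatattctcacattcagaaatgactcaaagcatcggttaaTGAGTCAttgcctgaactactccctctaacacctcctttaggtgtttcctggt
CTCF, chr3:152189885-152189984, plus: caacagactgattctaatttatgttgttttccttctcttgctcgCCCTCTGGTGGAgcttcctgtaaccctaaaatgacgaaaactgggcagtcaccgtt
CTCF, chrX:11551475-11551574, minus: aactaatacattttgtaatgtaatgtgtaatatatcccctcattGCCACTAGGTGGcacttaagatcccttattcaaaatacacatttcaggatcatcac
SpiB, chr6:4408150-4408249, plus: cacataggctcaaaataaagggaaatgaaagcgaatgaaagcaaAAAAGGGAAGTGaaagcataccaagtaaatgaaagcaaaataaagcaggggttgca
EICE, chr6:4408154-4408253, plus: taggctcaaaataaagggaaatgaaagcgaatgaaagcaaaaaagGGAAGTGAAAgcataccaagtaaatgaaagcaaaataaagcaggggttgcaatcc

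Most of the shared regions were listed as closed at 8 h alone. Of the 1095 regions, 310 (28.3%) were also closed at 3 h in VAL and 304 (27.8%) in OCI-LY3, where 6.77% and 6.36% of all listed regions were closed at 3 h. Both lists held 163 of them (14.9%), the VAL list alone held 147 (13.4%), the OCI-LY3 list alone held 141 (12.9%) and neither held 644 (58.8%). Within each line both times were compared with 1 set of 0 h libraries, so the overlap in time is given as counts and was not tested. None stood in the lists opened at 3 h (0 of 1095 in either line), which held 3545 regions in VAL and 1852 in OCI-LY3 of 26369 listed. Regions chosen as closed against the same 0 h libraries are unlikely to be listed there, so this count is no separate result. The selection itself keeps them out of those opened at 8 h.

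The 163 regions closed in both lines already at 3 h, called early regions below, were often found at the ends of genes. Their midpoint fell 0 to 5000 bp past the 3′ end of a protein-coding gene in 78 cases (47.9%, 95% Wilson interval 40.3 to 55.5). Among regions closed at 3 h in OCI-LY3 only, 25 of 141 did so (17.7%), among those closed at 3 h in VAL only 9 of 147 (6.12%), and among those closed at 8 h only 26 of 644 (4.04%, 2.77 to 5.85). Over all listed regions the share was 7.98%, and over regions opened in both lines at 8 h it was 14.6%. This pattern was noticed in these regions and then counted in them, so it carries no test here, and the intervals cover counting error over regions only.

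**Figure D1:**
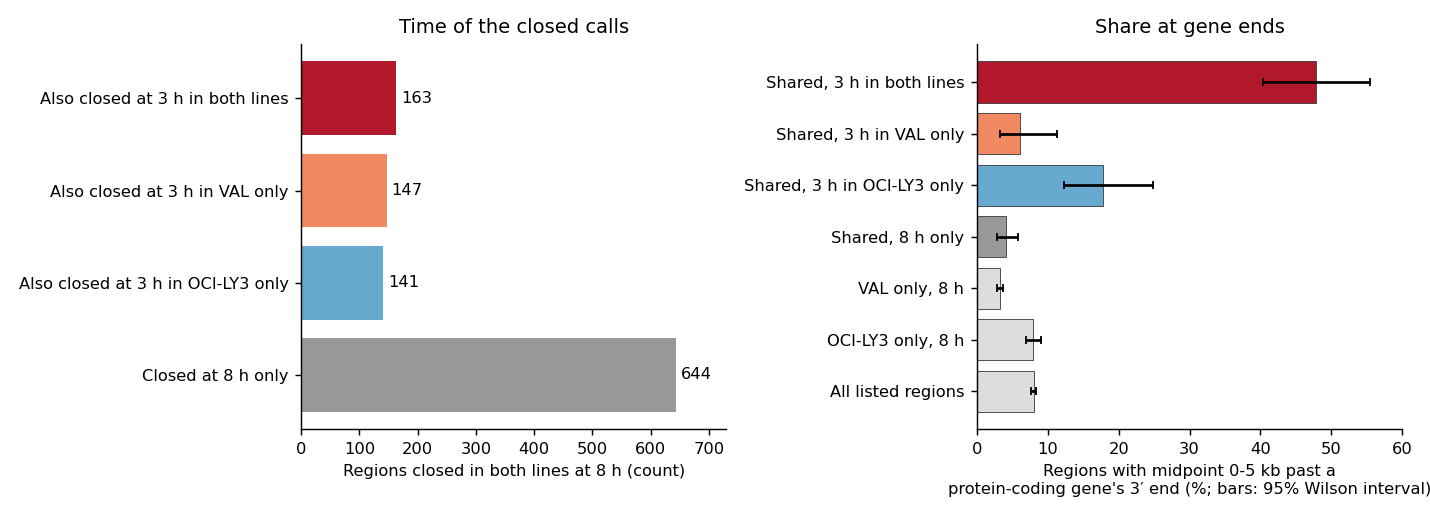
Left, the number of regions closed in both lines at 8 h by when they were also listed as closed (x axis, count). Right, the percentage of each set whose midpoint lay 0 to 5 kb past a protein-coding gene's 3′ end, with 95% Wilson intervals. The 163 regions also closed at 3 h in both lines reached 47.9%, and the 644 closed at 8 h only 4.04%.

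The early regions clustered within a few kilobases of the end. In bins of 2500 bp, 47 of the 163 early regions (28.8%) lay in the first bin past the end and 31 in the second, whereas 18 lay in the last bin inside the gene and 6 in the third bin past it. The 78 regions lay past 76 different genes, with a median distance of 2007.5 bp and quartiles of 1290.75 and 3243 bp. Counted within 2500 bp of the end instead, the share was 28.8%, and that of regions closed at 8 h only was 1.86%. Within 10000 bp the shares were 54.0% and 7.14%.

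**Figure D2:**
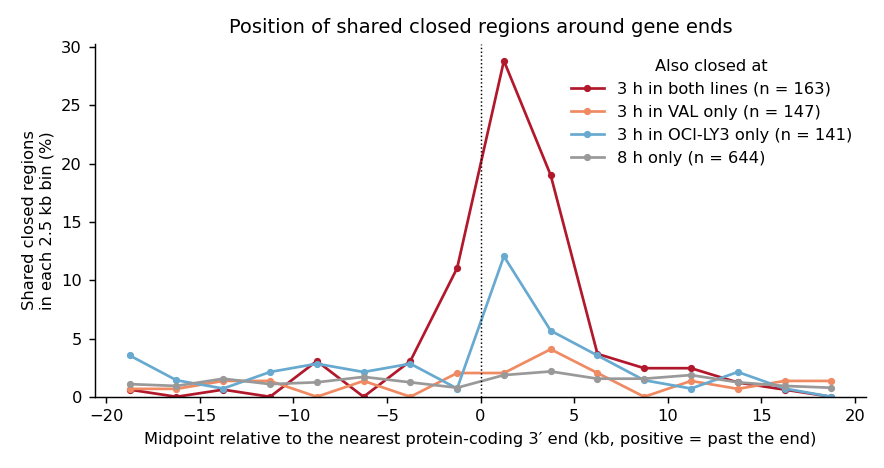
Percentage of shared closed regions in bins of 2.5 kb (y axis) against the distance of their midpoint from the nearest protein-coding 3′ end (x axis, kb, positive past the end), with 1 line for each time class. The line for regions closed at 3 h in both lines peaks at 28.8% in the first bin past the end, and the line for regions closed at 8 h only shows no peak of this size.

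The same position was then tested in regions that are not among the 1095. Of regions closed at 8 h in OCI-LY3 only, 95 of the 455 also closed at 3 h in that line lay 0 to 5000 bp past a gene end (20.9%), against 92 of the 1913 closed at 8 h only (4.81%). The odds ratio was 5.22 (95% interval 3.84 to 7.09, two-sided adjusted p = 3.78e-24 by Fisher's exact test), and the early share was higher on 18 of 21 autosomes. Of regions closed at 8 h in VAL only, 53 of 861 early regions (6.16%) and 212 of 7304 later ones (2.90%) lay there (odds ratio 2.21, 1.62 to 3.01, adjusted p = 3.38e-06 by Fisher's exact test, higher on 15 of 21 autosomes). The early VAL-only share was nevertheless below the 7.98% of all listed regions and the 14.6% of those opened in both lines, whereas the early OCI-LY3-only share was above both. Regions along a chromosome are not independent replicates, so these and all later p-values describe the spread over regions, not over cultures.

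The 76 genes are described here by function after their values were seen, with no test of any group. They included 7 cytosolic ribosomal protein genes, namely RPL37A, RPSA, RPS3A, RPS9, RPS12, RPS20 and RPS24. The 76 genes were 0.382% of all protein-coding genes, and the share of this whole family was not worked out. Each region was assigned to its nearest end only. The early region centred 389 bp past DENND4C was therefore not counted for RPS6, although it was also centred 1045 bp past the end of RPS6. Past RPL37A, a large-subunit gene, 2 early regions stood in a row at chr2:217370426-217370902 and chr2:217371087-217371564, centred 1855 and 2516 bp past its end. Past RPSA, a small-subunit gene, 2 stood at chr3:39455123-39457522 and chr3:39458362-39459590, centred 2289 and 4943 bp past the end. RPS12 was followed by an early region of 2715 bp at chr6:133140034-133142748, centred 2688 bp past the end, and then by a region closed at 3 h in OCI-LY3 only, centred 5426 bp past it. All 3 genes therefore had a run of closed regions downstream, which began 1 to 2 kb past the end. NCL (nucleolin) and NPM1 (nucleophosmin), both nucleolar proteins of ribosome assembly, had regions centred 1600 and 4154 bp past their ends.

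Chaperone and RNA-binding protein genes were also present. HSPA8, the constitutive HSP70, was followed by a region of 2214 bp centred 2871 bp past its end, and HSPD1, the mitochondrial HSP60, by a region of 1880 bp centred 1973 bp past it. TCP1, CCT2 and CCT5, subunits of the cytosolic chaperonin that folds actin and tubulin, had regions centred 886, 1497 and 168 bp past their ends. The 4 hnRNP genes HNRNPA3, HNRNPDL, HNRNPF and HNRNPK, which encode abundant binders of nascent RNA, had regions centred 1121, 160, 1203 and 2694 bp past theirs. The HNRNPDL region, 1794 bp wide, and the CCT5 region, 1364 bp wide, also reached back into their genes. PABPC1 (poly(A)-binding protein), ACTB (cytoplasmic actin), PTMA (prothymosin alpha), LDHB (lactate dehydrogenase B) and MAT2A (synthesis of S-adenosylmethionine) followed the same arrangement, at 3888, 3801, 1395, 1296 and 1280 bp.

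Some genes of B-cell identity stood in the same set, although most of the listed ones did not. Among the lists described below, the 76 genes held BCL6 of 30 B-cell transcription factor genes, PTPRC of 31 B-cell receptor signalling genes, RGS13 of 23 chemokine and migration receptor genes and 0 of 16 MHC class II genes. The 76 genes were 0.382% of all protein-coding genes, and counts this small do not set the lists apart. A region of 911 bp at chr11:60239059-60239969 was centred 1289 bp past the end of MS4A1, which encodes CD20. Regions were centred 2100 bp past CD38 and 4542 bp past PTPRC, the gene of the phosphatase CD45. BCL6, the repressor of the germinal centre programme, was followed by a region of 2034 bp at chr3:187436434-187438467, centred 1719 bp past its end. RGS13 (a regulator of G protein signalling in germinal centre B cells), LCP1 (the leukocyte actin bundler L-plastin), IRF1 and NFKBIZ had regions centred 2371, 1593, 885 and 2542 bp past their ends. The set was not made of genes of 1 kind, since genes with little known role in B cells, such as ENAM (an enamel protein) and HOXD13, were also the nearest end to an early region.

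**Figure D3:**
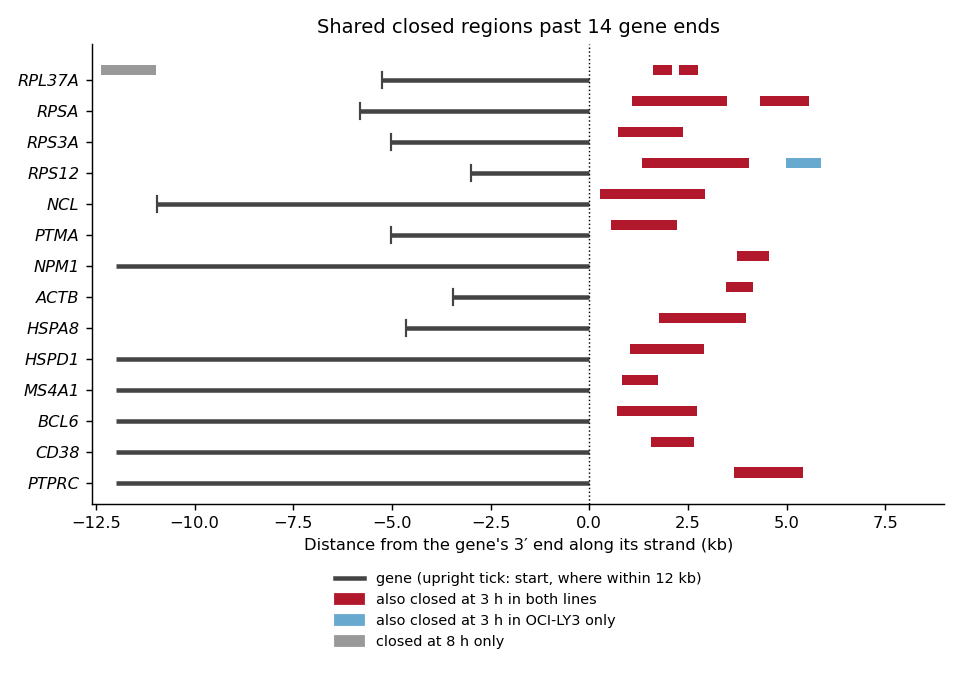
Shared closed regions around the 3′ ends of 14 genes, chosen after their values were seen. Each row is a gene drawn 5′ to 3′ as a dark line that ends at 0, the x axis is the distance from that end in kb along the gene's strand, and the coloured bars are regions by time class. In each row at least 1 region closed at 3 h in both lines lies wholly past the gene's end.

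Promoters of the 76 genes that opened at 8 h were fewer than over all genes in VAL, and near the share over all genes in OCI-LY3. A region listed as opened at 8 h lay within 1000 bp of the canonical transcription start site (TSS) of 24.3% of 19870 protein-coding genes in VAL and of 8.77% in OCI-LY3. For the 76 genes with an early region past their end the counts were 4 in VAL (5.26%) and 4 in OCI-LY3 (5.26%). These are counts of calls in the same libraries that chose the regions, and no test was made.

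Most of the 1095 shared regions were intronic or intergenic. Introns held 561 (51.2%), intergenic DNA 367 (33.5%), exons 52 (4.75%) and the 1000 bp around a TSS of any annotated gene 115 (10.5%). Only 65 (5.94%) lay within 1000 bp of the TSS of a protein-coding gene, the median distance to such a TSS was 47575 bp, and 321 (29.3%) were over 100 kb away. Exonic midpoints were held by 3.69% of all listed regions, 2.36% of VAL-only and 3.63% of OCI-LY3-only regions. Among shared regions they were held by 20 of the 163 early regions (12.3%) and by 21 of the 644 closed at 8 h only (3.26%). The median distance to any TSS was 9538 bp for the former and 17663 bp for the latter. The regions were 420 to 2968 bp wide with a median of 1369 bp, and their GC content ranged from 26.6 to 72.7% with a median of 41.7%.

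In promoter share the shared regions did not differ detectably from regions closed in 1 line only. The odds ratio was 0.931 against VAL-only regions (95% interval 0.758 to 1.14, adjusted p = 0.552 by Fisher's exact test) and 0.895 against OCI-LY3-only regions (adjusted p = 0.426). Against regions opened in both lines it was 0.0929 (adjusted p = 1.01e-155, lower on 20 of 21 autosomes). Against OCI-LY3-only regions, shared regions were less often above the median GC content of all listed regions, 47.5% (19.5% against 32.6%, odds ratio 0.504, adjusted p = 2.51e-15 by Fisher's exact test, 18 of 21 autosomes). They were also more often above the median width of 1309 bp (56.5% against 35.0%, odds ratio 2.41, adjusted p = 5.61e-32, 19 of 21 autosomes). Against VAL-only regions the share above the median GC content was slightly higher (19.5% against 15.8%, odds ratio 1.30, adjusted p = 0.00384 by Fisher's exact test, 13 of 21 autosomes), and with the upper quartile as the threshold this call was lost (odds ratio 1.12, adjusted p = 0.581). Fewer shared regions than opened ones exceeded the median width (odds ratio 0.636, adjusted p = 4.95e-09 by Fisher's exact test), but over 1000 bp from a TSS the direction turned (odds ratio 1.45, adjusted p = 7.84e-05). The 451 shared regions closed at 3 h in at least 1 line and the 644 closed at 8 h only did not differ at the threshold in promoter share, GC content or width, though with starts of protein-coding genes alone the share of promoters was lower in the former (odds ratio 0.537, adjusted p = 0.0457). Against regions opened in both lines, 19.5% of shared and 89.5% of opened regions were above the median GC content (odds ratio 0.0287, lower on 20 of 21 autosomes). With this comparison included, 6 of the 12 tests passed.

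Chromosomes differed widely in how many shared regions they held. Per 10 Mb, chromosome 4 held 6.38 shared regions (122 in all), chromosome 8 held 6.01, chromosome 7 held 5.97, chromosome 6 held 5.67 and chromosome 2 held 5.14. At the other end, chromosome 19 held 0.507 per 10 Mb (3 regions, among them the one past RPS9), chromosomes 16 and 17 held 1 region each and chromosome 22 held 0. Chromosomes 16, 17, 19, 20 and 22 together held 10 shared regions (0.913%), 5 of them from the 163 early ones, whereas they held 19.5% of all listed regions and 48.3% of those opened in both lines. Regions closed in 1 line only were also scarce there, with 80 of 8165 in VAL (0.980%) and 77 of 2368 in OCI-LY3 (3.25%). Joined where they lay within 10 kb of each other, the regions formed 1056 loci, of which 1022 were single regions, 30 held 2 and 4 held 3 or more.

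Of 19 consensus motifs, 3 separated the shared regions from regions closed in VAL only. Motifs were searched on both strands in the central 200 bp of each region. IRF matches were present in 96 of 1095 shared regions (8.77%) and 353 of 8165 VAL-only regions (4.32%), against 3.45% of all listed regions (odds ratio 2.13, 1.69 to 2.70, adjusted p = 1.85e-07 by Fisher's exact test, higher on 13 of 21 autosomes). With no mismatch allowed the ratio was 5.31. AP-1 (TGAGTCA) was present in 5.94% of shared and 3.70% of VAL-only regions, against 3.65% of all (odds ratio 1.65, 1.26 to 2.18, adjusted p = 0.0131 by Fisher's exact test, 12 of 21 autosomes). CTCF was less frequent, with 2.92% of shared and 6.16% of VAL-only regions against 4.01% of all (odds ratio 0.465, 0.324 to 0.667, adjusted p = 0.00013 by Fisher's exact test, lower on 16 of 21 autosomes), and with no mismatch allowed the call was lost (odds ratio 0.489, adjusted p = 0.479). These shares were not particular to the shared regions. OCI-LY3-only regions held IRF in 8.36%, AP-1 in 6.50% and CTCF in 2.96%, and the odds ratios of shared against OCI-LY3-only regions were 1.06 (95% interval 0.818 to 1.36), 0.911 (0.676 to 1.23) and 0.996 (0.653 to 1.52).

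Against regions closed in OCI-LY3 only, 0 of 19 motifs passed after Benjamini-Hochberg adjustment over 57 Fisher's exact tests, and 4 had an unadjusted p under 0.05. Those were SpiB (4.47% against 2.91%, odds ratio 1.57, 1.08 to 2.27, adjusted p = 0.293), PU.1 (GAGGAAGT, 4.84% against 3.25%, odds ratio 1.52, adjusted p = 0.304), RUNX (TGTGGTT, 6.94% against 5.15%, odds ratio 1.38, adjusted p = 0.324) and the GC box (GGGCGGG, 3.56% against 5.15%, odds ratio 0.686, adjusted p = 0.324). When whole regions were searched in place of the central 200 bp, SpiB, PU.1, RUNX and EICE passed in the direction of the shared regions, which are wider. Between the 451 shared regions closed at 3 h in at least 1 line and the 644 closed at 8 h only, 0 of 19 motifs passed in the same family of tests, with 1 unadjusted p under 0.05, for the E-box CACCTG. The OCT motif ATGCAAAT was found in 4.02% of shared regions, EICE in 5.21%, the ETS motif CCGGAAGT in 1 region (0.0913%) and NRF1 in 0, against 2.78%, 3.42%, 1.18% and 0.235% of all listed regions. OCT and EICE were found in 3.96% and 5.79% of VAL-only regions and in 3.51% and 3.80% of OCI-LY3-only regions.

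**Figure D4:**
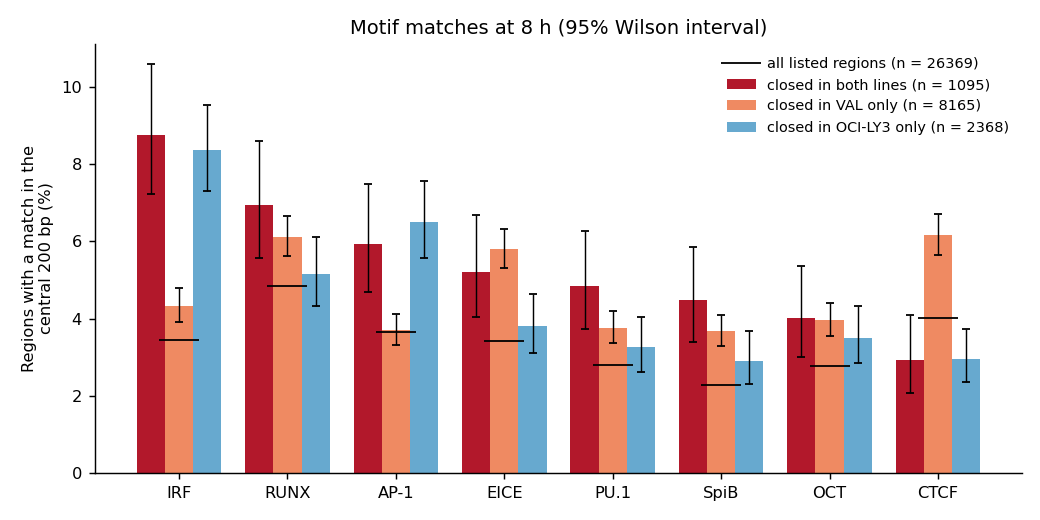
Percentage of regions with a match in their central 200 bp (y axis) for 8 motifs (x axis), in regions closed at 8 h in both lines, in VAL only and in OCI-LY3 only, with 95% Wilson intervals; black dashes mark all listed regions. IRF stands at 8.77% in shared and 4.32% in VAL-only regions, and CTCF at 2.92% and 6.16%.

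For several motifs the rate of matches was higher near the middle of the regions than towards their edges, although most matches lay elsewhere (60 of 413 IRF matches and 30 of 165 SpiB matches were within 50 bp of the midpoint). IRF matches were found in 5.30% of shared regions in the 100 bp just right of the midpoint and in 1.56% of those that reached 400 to 500 bp from it. SpiB fell from 2.56% to 0.557% over the same distance. In windows of 200 bp placed 5000 bp to the side of the regions, IRF was matched in 1.32%, SpiB in 0.411%, PU.1 in 0.822%, CTCF in 0.411% and AP-1 in 3.84%. For AP-1 the flanking share was thus nearer to the 5.94% inside the regions than for the other 4 motifs. Motifs overlapped in part, since 20 regions had both SpiB and PU.1 and 19 had both IRF and EICE.

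**Figure D5:**
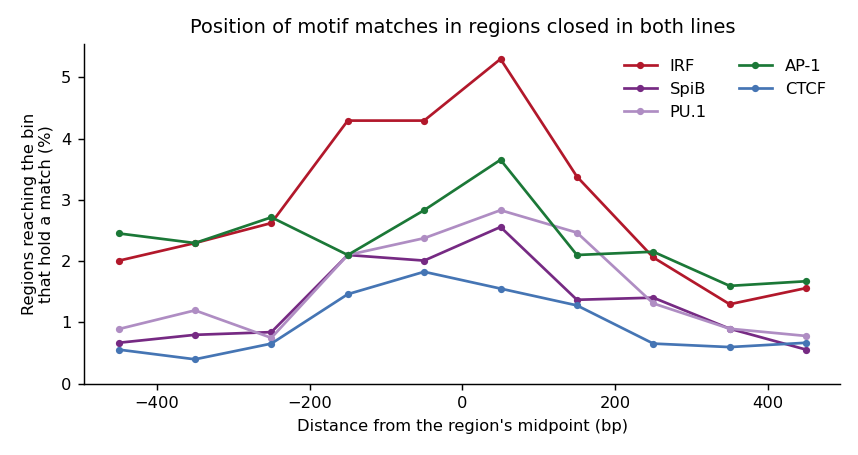
Percentage of shared closed regions with a match (y axis) in each bin of 100 bp, among regions that reach the bin, against the distance from the region's midpoint (x axis, bp), for 5 motifs. IRF reaches 5.30% just right of the midpoint and 1.56% at 400 to 500 bp.

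At least 1 of 8 motifs (CTCF, SpiB, IRF, AP-1, PU.1, EICE, OCT and RUNX) was present in 354 shared regions (32.3%), against 29.2% of VAL-only, 29.5% of OCI-LY3-only and 22.2% of all listed regions, the last including opened regions. By time class the share was 22.1% in regions closed at 3 h in both lines, 40.1% in those closed at 3 h in VAL only, 33.3% in those closed at 3 h in OCI-LY3 only and 32.9% in those closed at 8 h only. The class with the most gene-end regions thus had the lowest share. These shares by class are descriptive and were not tested.

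Linked to genes, the shared regions reached 631 of 19870 protein-coding genes (3.18%), counting a region inside the canonical transcript or within 10 kb of it. The median transcript span was 69768 bp for genes with a region and 23016.5 bp for all genes, so long genes were linked more often. Of 13 lists of genes taken for B-cell lymphoma and CDK9 biology, 20 of 310 genes (6.45%) had a shared region. Linked by the nearest TSS alone, 31 of them had one, against 4.51% of all genes. Listed cytosolic ribosomal protein genes had one in 7 of 40 (17.5%), although their median span was 4670 bp. This list does not hold the whole family, since RPL37A, RPSA and RPS3A had a shared region and were not in it. The 7 genes were RPS4X, RPS6, RPS9, RPS12, RPS20, RPS23 and RPS24, and each had a region closed at 3 h in both lines. That makes 7 of 40 for such early regions, against 0.916% of all genes, and among all genes with a shared region 182 of 631 had one. This list shares 4 genes with the gene-end set above. The region of RPS6 is in that set as well, counted under DENND4C, so the 2 counts are not separate evidence.

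B-cell transcription factor genes had a shared region in 4 of 30 cases (13.3%), and in 7 of 30 by the nearest TSS alone. Their median transcript span was 66865 bp. BACH2, a repressor of plasma cell fate, held a region in an intron, 98299 bp from its TSS, closed at 3 h in VAL only and with an EICE match. EBF1, a factor of early B-cell development, held one 201469 bp into the gene, closed at 8 h only. POU2AF1, the OCT2 coactivator OBF1, and BCL6 had regions centred 5983 and 1719 bp past their ends, closed at 3 h in both lines. In the other lists, NFKB1 and NFKBIZ stood for the NF-kB pathway (2 of 24), IFIT1 and IRF1 for interferon-stimulated genes (2 of 25), RAD21 and STAG2 for CTCF and cohesin (2 of 17), and BCL2, PTPRC and RGS13 each for their list (1 of 16, 1 of 31 and 1 of 23). Apart from those of IFIT1 and BCL2, these regions were centred within 5000 bp past the gene's end, for example 3136 bp past NFKB1 with an AP-1 match and 2061 bp past the cohesin gene STAG2. The region linked to IFIT1 was centred 8189 bp past that gene's end and 72 bp from a start of IFIT5, so it lay at the IFIT5 promoter. BCL2 held an intronic region 141537 bp from its TSS. MHC class II genes (0 of 16), JAK-STAT and SOCS genes (0 of 25) and elongation factors (0 of 30) had 0 regions, as did the T/NK cell (0 of 19) and myeloid (0 of 14) marker lists. With 3.18% of all genes linked to a region, lists of this size lie near 0 in any case, and these counts do not set them apart from other genes.

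The genes with the most shared regions were long ones. PAG1, an adaptor that restrains SRC family kinases, had 4, of which 1 was centred 2860 bp past the gene's end and was closed at 3 h in both lines. MARCHF1, a ubiquitin ligase that removes MHC class II from the surface of antigen-presenting cells, had 4 across its span, of which 1 was closed at 3 h in OCI-LY3 only, 1 at 3 h in VAL only and 2 at 8 h only. RYR2, a calcium release channel gene, also had 4, and NEK10 had 3, all of these closed at 8 h only. PTPRO, FNIP2, SYNPO2, CPED1 and PXDNL had 3 each, with SpiB, IRF, OCT, AP-1 or MEF2 matches in some. RPL37A, by contrast, is a short gene, and 2 of its 3 regions were the early ones past its end.

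Within 1000 bp of the start of any annotated gene lay 19 of the 163 early regions (11.7%) and 74 of the 644 closed at 8 h only (11.5%). Of the 163 regions closed at 3 h in both lines, 3 lay within 1000 bp of the canonical TSS of a protein-coding gene, namely GPR151 (5 bp away), MSH4 (129 bp) and TSPOAP1 (425 bp). The MSH4 region was also the one centred 1667 bp past the end of the neighbouring gene RABGGTB, which encodes a RAB geranylgeranyl transferase subunit. A selection of 15 genes that the study discusses (the oncogenes MYC, JUNB, PIM1 and PIM3, the survival genes MCL1 and BCL2L1, the B-cell genes IRF8, CXCR4, DTX1, PLCG2 and PIK3AP1, the p53 pathway genes CDKN1A, BBC3 and MDM2, and the Mediator subunit gene MED12) had 0 shared closed regions in the transcript or within 10 kb, a count that does not set them apart from all genes, of which 3.18% had one.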

How the data were processed

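ATAC-seq libraries of VAL and OCI-LY3 cells were grouped by line and time from the sample labels. Per the study's methods, reads were mapped to hg19 with Bowtie2, MACS2 peaks were merged over samples, and DESeq2 compared read counts at each time with 0 h. The files deposited by the authors give only chromosome, start and end (3 columns, no header) and 0 columns of per-sample values, so library depth and replicate error were not available for analysis here. The methods and a figure legend give different adjusted p thresholds, and the labels and methods give different cell numbers for Fast-ATAC.

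Regions were matched by equal coordinates and annotated with GENCODE v44 lifted to GRCh37 and the GRCh37 sequence (pysam 0.24.0, pandas 2.3.3 and numpy 2.4.6 under Python 3.11.15; statistics with scipy 1.17.1). The midpoint set each region's context, a promoter being within 1000 bp of a basic transcript's start. Motifs were fixed consensus sequences on both strands, with at most 1 mismatch for CTCF, SpiB and IRF and 0 for the others. Two-sided Fisher's exact tests set shares against each other, with Benjamini-Hochberg adjustment (12 feature tests, 57 motif tests, 2 gene-end tests, threshold 0.05). Odds ratios had 0.5 added to each cell and 95% Wald intervals. Regions closed at 8 h in both lines, the gene lists, motifs and tests were chosen with earlier results of these data known, and the gene-end measure after seeing the regions themselves. Named genes were those of the lists with 2 or more regions, the 10 genes with most regions, up to 10 with a region closed in all 4 decreased lists within 1000 bp of the canonical start, and a selection of 15 that the study discusses. Others were named after their values were seen. Scripts were tested on simulated data. Alternatives covered the motif window, mismatches, promoter distance, locus merging, strata of GC content and width, and gene linkage.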

Additional observations from a re-analysis of the deposited data

How the results depend on the processing

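Of 168 alternatives, 141 left both the direction and the call as they were, and so did 40 of the 43 tried for the 11 tests that passed. These include both gene-end tests, with odds ratios of 1.89 to 2.60 in VAL-only and 4.56 to 6.23 in OCI-LY3-only regions over 5 alternatives each, chosen after seeing the data. Searching whole regions gave odds ratios against OCI-LY3-only regions of 1.60 for SpiB, 1.33 for PU.1, 1.57 for EICE and 1.32 for RUNX, each then past the threshold, and turned CTCF to 1.21 and AP-1 to 1.04. It also turned EICE (1.04) and OCT (0.863) against VAL-only regions, and SpiB (0.694), EICE (0.967) and RUNX (0.856) between shared regions also closed at 3 h in at least 1 line and those closed at 8 h only. CTCF against OCI-LY3-only regions turned to 1.01 with 1 region per locus and to 1.02 within strata of GC content and width, and IRF turned to 0.989 over 1000 bp from a TSS and to 0.852 within strata. With no mismatch, CTCF against VAL-only regions missed the threshold (0.489) and SpiB turned (0.942). With promoters of 2500 bp the ratio against VAL-only regions was 1.00, and with protein-coding starts the ratio for the same split by time passed (0.537). With the upper quartile of GC content the ratios were 1.12 against VAL-only regions, no longer past the threshold, and 0.545 for the split by time, reversed. Away from promoters, width passed against VAL-only regions (1.16) and reversed against opened ones (1.45). Taking only the nearest TSS linked 31 genes of the lists. The gene-end share of regions closed at 3 h in both lines was 28.8% within 2500 bp, and that of regions closed at 8 h only was 1.86% within 2500 bp and 7.14% within 10000 bp, alternatives chosen after seeing the data. For these changes the cause was not tested. No paired analysis was possible because per-library values are absent from the lists used here, and leaving out a library could not be run either.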

Other observations

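Genes of small nucleolar RNAs, which guide the modification of ribosomal RNA and mostly lie in introns of host genes, were near several regions closed at 3 h in both lines. A snoRNA or scaRNA gene was centred within 5000 bp of 14 of the 163 regions closed at 3 h in both lines (8.59%) and of 4 of the 644 closed at 8 h only (0.621%). Over all 1095 shared regions the count was 19 (1.74%). The share over all listed regions was not counted, so whether this is particular to the shared regions cannot be told. For the early regions these were beside NCL, RPSA, RPS3A, RPS12, RPS20, HSPA8 and TCP1, whose ends they follow, and in part in other places. Among the latter, a region near SNORA4 was centred inside RFC4, whose end was nearest, and 7208 bp downstream of the start of EIF4A2. Whether it also lay past the end of EIF4A2 was not counted. Of the 14, 8 also counted as gene-end regions. Ends of long noncoding RNA genes added 8 regions to the 78 early ones at protein-coding ends and 27 to the 26 closed at 8 h only. With these included, 86 of the 163 early regions (52.8%) and 53 of the 644 closed at 8 h only (8.23%) lay 0 to 5000 bp past an end, among them regions past SNHG1, SNHG6 and MIR142HG, the host of a microRNA of blood cells. These counts were made after the regions had been seen, were not made over all listed regions and were not tested.

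Of the shared closed regions, 9 (0.822%) had a region opened in both lines at 8 h within 10 kb, against 5 of 8165 closed in VAL only (0.0612%) and 15 of 2368 closed in OCI-LY3 only (0.633%), with no test made. Of the 9, 8 were among the 163 closed at 3 h in both lines (4.91%). The 4 loci that held 3 or more shared regions within 10 kb steps had MYCBP2 (4 regions over 22150 bp), TOMM7 and GPC5 (3 each) as the gene with the nearest start, or lay inside PAG1 (3). The 3 regions near GPC5, over 9427 bp, were all closed at 3 h in both lines, as were 2 of the 3 near TOMM7.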
